A study of Mus musculus with 12 samples.

Results

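The 10 genes described here encode the precursors of neuropeptides made by neurons of the inner retina: Penk, Vip, Npy, Sst, Tac1, Cck, Pnoc, Adcyap1, Gal and Crh. They were taken by gene name from the table of 32867 genes that the authors deposited for 12 retina samples, and all 10 had counts in every sample. Total retinal RNA, depleted of ribosomal RNA, had been sequenced from 3 mouse models of inherited photoreceptor degeneration and from wild-type animals, and each of the 4 groups held 3 samples. The Pde6b rd1 samples were from postnatal day 13 and the Pde6b rd10 samples from day 23, both with a mutation in the rod phosphodiesterase subunit Pde6b. The Prph rd2 samples, with a mutation in the outer segment protein peripherin, were from day 29. The wild-type mice were C3H, and their samples carry the labels day 13, day 23 and day 29, with 1 sample for each day. The labels describe these days as the peaks of photoreceptor cell death. Each model was therefore of 1 age, and mutation and age cannot be told apart, except, if the labels hold, through the single C3H sample of the same day. For strain, the study's methods give C3H for Pde6b rd1, Prph rd2 and the wild type and C57Bl6/J for Pde6b rd10, whereas the labels give C57BL6/J for Prph rd2. Strain and mutation can thus not be told apart for Pde6b rd10, nor, if the labels hold, for Prph rd2. The labels do not say that the 3 samples of a group were separate animals, so p-values measure the spread between these samples, which may be technical.

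Neuropeptides are cut from larger precursor proteins by proprotein convertases, stored in dense-core vesicles together with granins, and released to act mostly on G-protein-coupled receptors. In the retina they are made chiefly by subsets of amacrine cells, the inhibitory interneurons of the inner retina, which release them beside GABA or glycine, and in part by ganglion cells. Penk, Cck, Vip and Npy mark separate amacrine or ganglion cell subsets, and activity of the cell is known to control the transcription of several of these genes.

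The libraries held 17049495 to 24755890 gene reads each. By library size alone, 3 counts, taken as the smallest value to read, corresponded to 0.121 to 0.176 CPM. Normalized CPM are counts relative to the library size after TMM scaling and serve for comparisons between samples, and FPKM values, which are also divided by gene length, serve for comparisons between genes. The median SD of log2 CPM over genes was 0.0938 among the 3 C3H samples, whose labels give 3 ages, and 0.0953 among the Pde6b rd1 samples, 0.107 among those of Pde6b rd10 and 0.125 among those of Prph rd2. The sexes were not mixed alike. Xist, which is transcribed from the inactive X chromosome, was at 0.386 to 0.517 CPM in C3H, 3657 to 3890 in Pde6b rd1, 715 to 802 in Pde6b rd10 and 1558 to 1980 in Prph rd2. The summed CPM of 4 Y-linked genes was 284 to 309, 0, 196 to 231 and 109 to 133 in the same order. Sex makeup thus differed from C3H in every model, and sex and mutation cannot be told apart in any comparison with C3H. The part of sex in the results below was not tested.

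In GRCm38 with the GENCODE vM21 annotation, the member with the largest differences, Cck, spans chr9:121489824-121495694 on the minus strand. Penk spans chr4:4133531-4138819 on the minus strand and is overlapped by A830012C17Rik on the opposite strand, which had 1 to 7 counts per sample, and whether the authors' counting used strand is not given in the sources used here. Several neuropeptide genes carry near their start a cyclic AMP response element, at which CREB family factors bind. RefSeq promoters of GRCm38.p6, 250 bases before to 50 after the start, were matched for 7 of the 10 members, and 4 are shown as examples with each of the motifs and with none. Capitals mark TGACGTCA in Sst, TGACG in Vip and TGCGTCA in Cck, searched on both strands, where TGACG is part of TGACGTCA and its reverse complement CGTCA is part of TGCGTCA. The Cck promoter is chr9:121495645-121495944 (minus strand), that of Vip chr10:5638968-5639267 (plus), that of Sst chr16:23890795-23891094 (minus) and that of Npy chr6:49822460-49822759 (plus).
Cck: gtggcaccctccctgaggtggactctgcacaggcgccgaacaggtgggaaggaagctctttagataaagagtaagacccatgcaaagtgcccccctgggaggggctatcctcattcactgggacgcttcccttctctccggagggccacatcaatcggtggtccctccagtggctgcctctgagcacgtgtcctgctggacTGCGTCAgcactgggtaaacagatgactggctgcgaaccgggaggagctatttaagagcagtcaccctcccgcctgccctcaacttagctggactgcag
Vip: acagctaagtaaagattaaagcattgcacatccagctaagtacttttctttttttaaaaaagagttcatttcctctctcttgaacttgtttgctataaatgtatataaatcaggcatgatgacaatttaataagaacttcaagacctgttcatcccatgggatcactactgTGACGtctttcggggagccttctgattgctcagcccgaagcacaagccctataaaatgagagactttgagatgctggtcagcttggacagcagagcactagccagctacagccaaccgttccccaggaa
Sst: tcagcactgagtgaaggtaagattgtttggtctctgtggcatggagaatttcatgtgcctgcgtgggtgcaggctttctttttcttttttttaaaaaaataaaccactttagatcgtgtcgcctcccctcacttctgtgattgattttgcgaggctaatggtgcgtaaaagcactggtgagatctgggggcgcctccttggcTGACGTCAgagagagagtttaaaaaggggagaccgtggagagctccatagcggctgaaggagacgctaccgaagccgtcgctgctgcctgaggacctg
Npy: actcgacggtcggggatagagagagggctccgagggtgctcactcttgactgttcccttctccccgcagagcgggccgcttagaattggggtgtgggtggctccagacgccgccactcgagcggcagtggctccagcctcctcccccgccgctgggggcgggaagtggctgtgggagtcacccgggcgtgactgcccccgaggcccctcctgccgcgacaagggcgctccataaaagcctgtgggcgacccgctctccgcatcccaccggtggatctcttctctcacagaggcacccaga
Relative to the start, TGCGTCA of Cck began at base -49, TGACG of Vip at -79 and TGACGTCA of Sst at -48. These letters occur in 2.12%, 20.8% and 1.79% of 32851 promoters of the same length, in that order. Npy held none of the 3 in this window. The promoters not shown held them too: Tac1, which was called in no comparison, had TGCGTCA at base -199 as well as TGACG, and Adcyap1 and Gal had TGACG. The matches describe the reference sequence, and no binding was measured.

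By FPKM, Npy was the most abundant member in C3H, at 11.5 ± 1.05 FPKM (SD, n = 3 here and for the other levels). Npy encodes neuropeptide Y, found in a sparse set of amacrine cells. Tac1, the precursor of substance P, and Penk, the precursor of the enkephalins, followed at 4.18 ± 0.425 and 4.03 ± 0.372 FPKM, with overlapping samples. Vip, the precursor of vasoactive intestinal peptide, was at 2.94 ± 0.362 FPKM, below every Penk sample. Sst, which encodes somatostatin, was at 1.80 ± 0.466 FPKM and overlapped with the galanin gene Gal at 1.36 ± 0.0791. Adcyap1, which encodes PACAP, was at 1.12 ± 0.103 FPKM, Cck, which encodes cholecystokinin, at 0.832 ± 0.196, and Pnoc, which encodes nociceptin, at 0.788 ± 0.173, and neighbours among these 3 overlapped. Crh, the gene of corticotropin-releasing hormone, came last at 0.535 ± 0.0759 FPKM, below every Pnoc sample.

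This order was different in each model. In Pde6b rd1, Npy reached 18.4 ± 2.33 FPKM, and Cck fell to the last place at 0.261 ± 0.134, though its samples overlapped with those of Crh. In Pde6b rd10, Npy at 7.47 ± 0.412 and Penk at 7.06 ± 0.550 FPKM overlapped at the top. Cck took the third place there at 4.91 ± 0.682 FPKM, overlapping with Tac1 at 4.19 ± 0.257, and Pnoc stood last at 0.192 ± 0.0208. In Prph rd2, Npy led at 8.32 ± 1.34 FPKM, and Cck was in the fifth place at 2.27 ± 0.345, overlapping with Sst at 2.26 ± 0.567. The sum over the 10 genes differed less than its makeup. It was 28.2 to 30.9 FPKM in C3H, 29.7 to 34.4 in Pde6b rd1, 30.7 to 33.5 in Pde6b rd10 and 25.7 to 29.2 in Prph rd2. Npy held 37.5 to 41.0% of that sum in C3H, 53.1 to 60.1% in Pde6b rd1, 22.3 to 23.9% in Pde6b rd10 and 27.5 to 35.9% in Prph rd2. Cck held 2.32 to 3.38%, 0.408 to 1.21%, 13.6 to 16.5% and 7.75 to 9.10%, in the same order. These levels and shares are descriptions without a test.

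**Figure D1:**
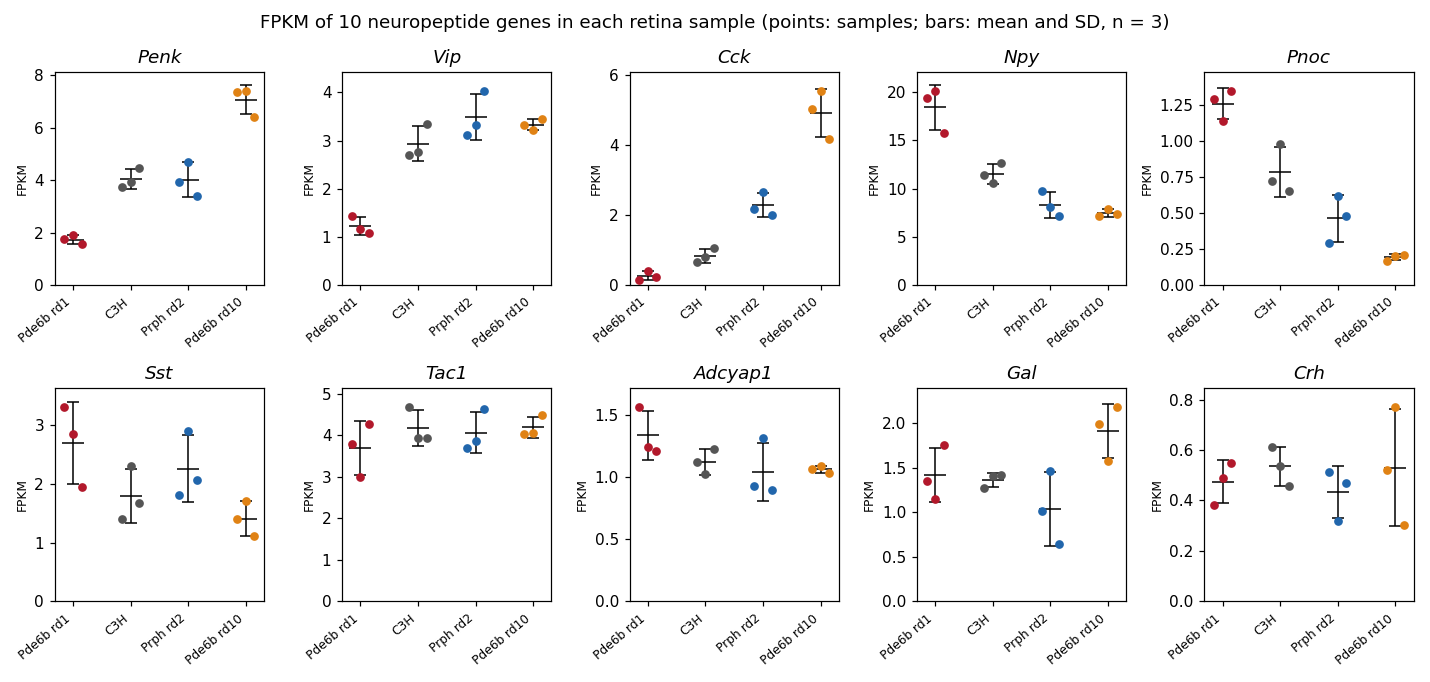
FPKM (linear axis from 0) of the 10 neuropeptide genes in each of the 12 samples, points for samples and bars for the mean and SD of 3 samples per group. Cck separates all 4 groups, from 0.261 FPKM on average in Pde6b rd1 to 4.91 in Pde6b rd10.

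**Figure D2:**
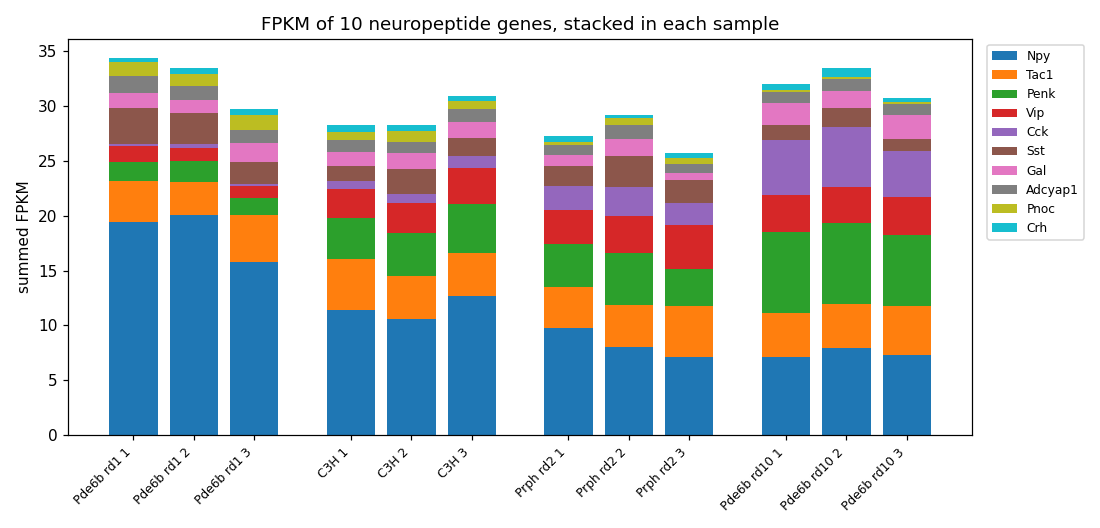
Stacked FPKM of the 10 genes in each sample, with bar height for the sum. The sum lies between 25.7 and 34.4 FPKM in all 12 samples, while the Npy segment is widest in Pde6b rd1 and the Penk and Cck segments in Pde6b rd10.

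The first comparison asked how the genes differed between Pde6b rd1 and C3H retina at the peak of cell death. Cck, Penk and Vip were lower in Pde6b rd1, by 3.43-fold, 2.45-fold and 2.48-fold, and Npy and Pnoc were higher, by 1.52-fold and 1.51-fold. Following the study's thresholds, genes were called where the unadjusted p was under 0.05 and the difference at least 1.5-fold, and adjusted p-values below are from edgeR's quasi-likelihood test with Benjamini-Hochberg adjustment over all tested genes. All 10 members were tested in every comparison. Of all genes tested in this comparison, 8.98% were called higher and 6.03% lower, and of the 10 members 2 were called higher and 3 lower. The median log2 fold change was -0.13 over the members and -0.011 over all tested genes.

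Cck had 17, 25 and 27 counts in the 3 C3H samples and 4, 9 and 6 in Pde6b rd1, which is 0.879, 1.07 and 1.42 CPM against 0.176, 0.507 and 0.303. Every Pde6b rd1 sample lay below every C3H sample, and the log2 fold change was -1.78 (SE 0.40, adjusted p 8.68e-04). Penk was at 6.26, 6.61 and 7.56 CPM in C3H and at 2.73, 2.99 and 2.47 in Pde6b rd1. The groups lay far apart, with a log2 fold change of -1.29 (SE 0.14, adjusted p 9.37e-08). Vip was at 9.41, 9.69 and 11.9 CPM in C3H and at 4.71, 3.83 and 3.58 in Pde6b rd1, also without overlap. Its log2 fold change was -1.31 (SE 0.13, adjusted p 1.41e-08). In these bulk samples, fewer cells of a type and less RNA per cell cannot be told apart.

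Npy went the other way, at 6.62, 6.18 and 7.46 CPM in C3H and at 10.6, 10.9 and 8.68 in Pde6b rd1. The groups did not overlap, and the log2 fold change was 0.60 (SE 0.11, adjusted p 1.35e-04). Pnoc was at 1.60, 2.19 and 1.47 CPM in C3H and at 2.69, 2.37 and 2.82 in Pde6b rd1, a log2 fold change of 0.59 (SE 0.21, adjusted p 0.0257). Both sat just past the 1.5-fold threshold. The Npy call was lost without C3H replicate 2 (log2 fold change 0.53), without Pde6b rd1 replicate 1 (0.56) and without Pde6b rd1 replicate 2 (0.55). The Pnoc call was lost without C3H replicate 1 (0.53) or 3 (0.48) and without Pde6b rd1 replicate 1 (0.58) or 3 (0.54). The other 5 members were not called in Pde6b rd1. Sst had a log2 fold change of 0.50 (SE 0.26, adjusted p 0.135) with overlapping groups, and it was called without C3H replicate 2 (0.73) and without Pde6b rd1 replicate 3 (0.68).

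The second comparison, of Pde6b rd10 with C3H, gave the largest difference of any member among the 3 comparisons with C3H. Cck was 5.66-fold higher and Penk 1.69-fold higher in Pde6b rd10, and Pnoc was 4.30-fold lower and Npy 1.61-fold lower. Of all genes tested, 15.9% were called higher and 8.08% lower in this comparison, against 2 and 2 of the 10 members. The median log2 fold change was -0.064 over the members and -0.0025 over all tested genes. Cck counts were 162, 135 and 109 in Pde6b rd10, which is 6.52, 7.18 and 5.41 CPM. All were far above the C3H samples, and the log2 fold change was 2.50 (SE 0.19, adjusted p 5.57e-10). Penk had 121, 154 and 144 counts in C3H and 298, 226 and 210 in Pde6b rd10, above all C3H samples also in CPM, with a log2 fold change of 0.76 (SE 0.11, adjusted p 4.84e-06).

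Pnoc had 31, 51 and 28 counts in C3H and 9, 8 and 9 in Pde6b rd10, where it was at 0.362, 0.426 and 0.447 CPM. No Pde6b rd10 sample reached a C3H sample, and the log2 fold change was -2.10 (SE 0.31, adjusted p 6.94e-06). Npy was at 4.02, 4.47 and 4.12 CPM in Pde6b rd10, below all C3H samples, with a log2 fold change of -0.68 (SE 0.13, adjusted p 1.51e-04). Against the single C3H sample of day 23, the Npy log2 fold change was -0.56 and the gene was not called. Vip, which had fallen in Pde6b rd1, was at 11.3, 10.9 and 11.7 CPM and overlapped with C3H, with a log2 fold change of 0.13 (SE 0.10, adjusted p 0.288). Gal was at 0.931, 1.03 and 1.05 CPM in C3H and at 1.41, 1.12 and 1.54 in Pde6b rd10, without overlap, but the log2 fold change of 0.43 (SE 0.26) had an adjusted p of 0.166.

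In the third comparison, of Prph rd2 with C3H, Cck was again higher, by 2.67-fold, and Pnoc was lower, by 1.74-fold. Of all genes tested, 2.68% were called higher and 1.89% lower, against 1 and 1 of the 10 members, and the median log2 fold change was -0.10 over the members. Cck had 67, 83 and 63 counts, or 2.87, 3.48 and 2.63 CPM, all above C3H and all below Pde6b rd10. Its log2 fold change was 1.41 (SE 0.23, adjusted p 0.00116). Pnoc was at 0.641, 1.34 and 1.04 CPM, below all C3H samples, with a log2 fold change of -0.80 (SE 0.30). Its unadjusted p passed the threshold and its adjusted p of 0.109 did not, and the call was lost without C3H replicate 2 (log2 fold change -0.60) and without Prph rd2 replicate 1 (-0.56). Npy was at 5.60, 4.57 and 4.09 CPM, below all C3H samples, with a log2 fold change of -0.50 (SE 0.14, adjusted p 0.0393) that was under 1.5-fold. Without Prph rd2 replicate 1 the Npy log2 fold change was -0.64 and the gene was called lower. Penk at 6.50, 7.71 and 5.59 CPM and Vip at 10.7, 11.4 and 13.9 CPM overlapped with C3H. Their log2 fold changes were -0.04 (SE 0.13) for Penk and 0.22 (SE 0.12) for Vip. Gal was not called in Prph rd2, at a log2 fold change of -0.43 (SE 0.33), and was called lower without Prph rd2 replicate 2 (-0.76).

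**Figure D3:**
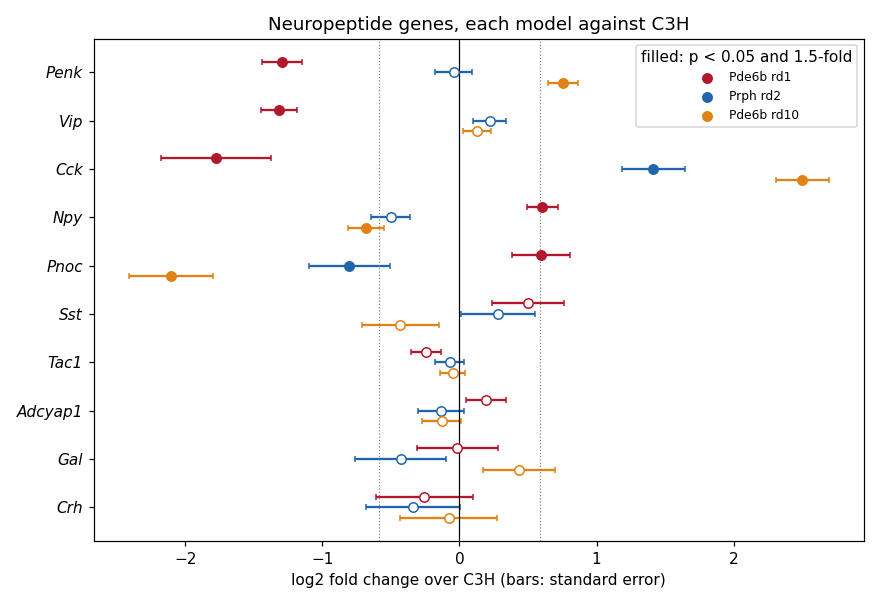
Log2 fold change of each neuropeptide gene in the 3 models over C3H with its standard error, filled where the gene was called and dotted at 1.5-fold. Cck lies at -1.78 in Pde6b rd1, 1.41 in Prph rd2 and 2.50 in Pde6b rd10, and Pnoc at 0.59, -0.80 and -2.10.

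The 3 comparisons share their C3H samples, so the models were also compared directly, by contrasts in a fit of all 12 samples. Between Pde6b rd10 and Pde6b rd1, which carry mutations in the same gene, 6 of the 10 members were called, 3 higher and 3 lower in Pde6b rd10. Of all tested genes 28.8% were called, 17.6% higher and 11.2% lower. Pde6b rd10 had 19.8-fold more Cck than Pde6b rd1, with a log2 fold change of 4.31 (SE 0.27, adjusted p 2.91e-11). Penk was 4.21-fold higher, with a log2 fold change of 2.07 (SE 0.14, adjusted p 8.94e-11), and Vip was 2.77-fold higher, with a log2 fold change of 1.47 (SE 0.13, adjusted p 1.04e-08). Pnoc was 6.37-fold lower in Pde6b rd10, with a log2 fold change of -2.67 (SE 0.30, adjusted p 1.90e-07). Npy was 2.40-fold lower (-1.26, SE 0.13, adjusted p 8.46e-08). Sst was 1.87-fold lower (-0.90, SE 0.28, adjusted p 0.00999). None of these 6 genes had overlapping samples between these models, and the share of all tested genes without overlap was not counted.

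Between Prph rd2 and Pde6b rd1, 5 of the 10 members were called, 3 higher and 2 lower in Prph rd2. Of all tested genes 16.9% were called, 8.21% higher and 8.66% lower. The members were Cck (log2 fold change 3.22, SE 0.30, adjusted p 3.09e-08), Vip (1.56, SE 0.13), Penk (1.28, SE 0.15), Npy (-1.08, SE 0.13) and Pnoc (-1.38, SE 0.25, adjusted p 1.73e-04). The first 3 were higher in Prph rd2 and the last 2 lower. Between Pde6b rd10 and Prph rd2, 5 members were also called, 3 higher and 2 lower in Pde6b rd10. Of all tested genes 19.7% were called, 13.5% higher and 6.16% lower. Cck was 2.13-fold higher in Pde6b rd10 (log2 fold change 1.09, SE 0.18, adjusted p 3.80e-05), Penk 1.74-fold (0.80, SE 0.12, adjusted p 1.23e-05) and Gal 1.82-fold (0.86, SE 0.30, adjusted p 0.0231). Pnoc was 2.45-fold lower (-1.29, SE 0.33, adjusted p 0.00346) and Sst 1.63-fold lower (-0.71, SE 0.28, adjusted p 0.0485). The Sst call was lost without Prph rd2 replicate 2 (-0.49). It was also lost without Pde6b rd10 replicate 1 (-0.71) or 3 (-0.57). The Gal call was lost without Prph rd2 replicate 3 (0.61). Vip and Npy overlapped between Pde6b rd10 and Prph rd2, with log2 fold changes of -0.09 (SE 0.11) and -0.18 (SE 0.14).

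Tac1, Adcyap1 and Crh were called in none of the 6 comparisons. Tac1 was at 16.3, 13.8 and 13.9 CPM in C3H, 12.4, 9.75 and 14.1 in Pde6b rd1, 13.6, 13.7 and 15.1 in Pde6b rd10 and 12.7, 13.2 and 15.9 in Prph rd2. The 4 groups overlapped, and its log2 fold changes over C3H were -0.24 (SE 0.11) for Pde6b rd1, -0.049 (SE 0.09) for Pde6b rd10 and -0.071 (SE 0.11) for Prph rd2. Adcyap1, which is known from the melanopsin ganglion cells, was at 3.99 to 4.83 CPM in C3H, 4.44 to 5.68 in Pde6b rd1, 3.87 to 4.10 in Pde6b rd10 and 3.42 to 4.99 in Prph rd2. Its Pde6b rd10 samples all lay below its Pde6b rd1 samples, at 1.23-fold. Crh, at 8 to 19 counts per sample, had standard errors of 0.34 to 0.35 on its log2 fold changes over C3H, so that differences near 1.5-fold were not detectable at this depth. Sst, at 16 to 52 counts, had FPKM coefficients of variation of 21.2 to 26.0% within groups, against 3.52 to 16.6% for Penk and Vip.

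The labelled days of the C3H samples allow a look at age, without a test. The median SD of log2 CPM over genes was 0.0938 among these 3 C3H samples. It was thus no larger than the 0.0953 to 0.125 within the models of 1 labelled day. Whether the C3H samples differed in age as labelled was not tested, so the same-day values may not account for age. The C3H sample of day 13 had 0.879 CPM of Cck, 6.26 of Penk and 9.41 of Vip, against 0.176 to 0.507, 2.47 to 2.99 and 3.58 to 4.71 in the Pde6b rd1 samples of the same day. For Npy it lay at 6.62 CPM and for Pnoc at 1.60 CPM, between the C3H samples of days 23 and 29 for both genes. With each model set against only the C3H sample of its day, so that this single sample is assumed to vary like those of the model, the log2 fold changes of Cck were -1.43 for Pde6b rd1 (adjusted p 0.130), 2.56 for Pde6b rd10 (adjusted p 9.80e-08) and 1.08 for Prph rd2 (adjusted p 0.146). For Penk they were -1.19 (adjusted p 2.05e-04), 0.79 (adjusted p 2.92e-04) and -0.19 (adjusted p 0.787). The Pnoc call in Prph rd2 was lost in this setting (-0.53), Npy in Prph rd2 (-0.64) and Sst in Pde6b rd10 (-0.77) were called lower, and Sst in Pde6b rd1 (0.87) was called higher.

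**Figure D4:**
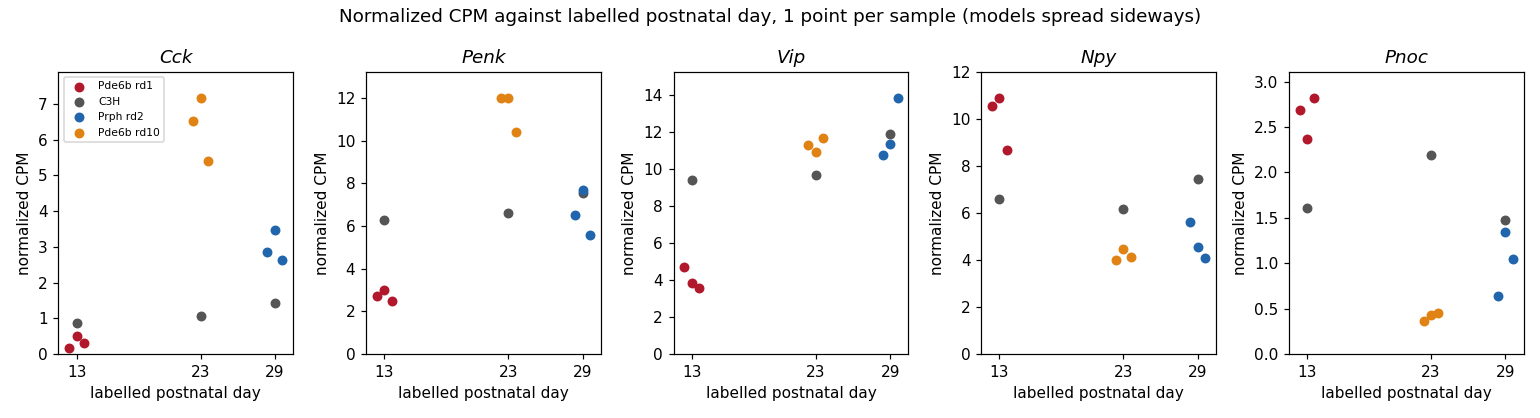
Normalized CPM (linear axis from 0) of Cck, Penk, Vip, Npy and Pnoc against the labelled postnatal day, with 1 point per sample. The grey C3H points of days 13, 23 and 29 span 0.879 to 1.42 CPM for Cck and 1.47 to 2.19 for Pnoc, and Pde6b rd1 lies below the C3H point of day 13 for Cck, Penk and Vip and above it for Npy and Pnoc.

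Receptors for the 10 peptides formed a list of 23 genes, of which 15 or 16 were tested per comparison. In Pde6b rd1, 2 of 16 were called lower and 0 higher, where 6.03% of all tested genes were called lower and 8.98% higher, with a median log2 fold change of -0.12. Vipr1, a receptor for vasoactive intestinal peptide and PACAP, had 23, 22 and 15 counts in C3H and 2, 7 and 8 in Pde6b rd1. The groups did not overlap, and its log2 fold change was -1.73 (SE 0.44, adjusted p 0.00238). Its call was lost with limma on log2 FPKM with 1 added (-0.14) and with the filter at 1 CPM. Npy1r, the Y1 receptor of neuropeptide Y, was at 3.67, 4.33 and 3.15 CPM in C3H and at 2.51, 2.31 and 2.27 in Pde6b rd1, opposite in direction to Npy, with a log2 fold change of -0.63 (SE 0.18, adjusted p 0.00595). This call was lost without C3H replicate 2 (-0.51), with amacrine scaling (-0.31) and with limma with 1 or 0.1 added (-0.25 and -0.49). In Pde6b rd10, 2 of 15 receptors were called higher and 1 lower, with a median of 0.19. These shares are near those of all tested genes, 15.9% higher and 8.08% lower. Galr2, a galanin receptor, was at 4.14, 4.03 and 3.62 CPM in C3H and at 0.362, 0.532 and 0.595 in Pde6b rd10. The groups did not overlap (log2 fold change -3.0, SE 0.24, adjusted p 1.0e-09), and Gal itself had its highest mean in this model. In the other models Galr2 was at 3.83 to 6.56 CPM in Pde6b rd1 and 3.85 to 5.20 in Prph rd2. Adcyap1r1, the PACAP receptor, was at 11.9, 11.5 and 11.3 CPM in C3H and at 18.7, 20.4 and 16.2 in Pde6b rd10 (log2 fold change 0.67, SE 0.09, adjusted p 3.05e-06). Vipr1 was called higher in Pde6b rd10 with overlapping groups and an adjusted p of 0.0509. This call was lost without C3H replicate 2 or 3 and without Pde6b rd10 replicate 1 or 2, where the log2 fold change was 0.49 to 0.64. It was also lost with DESeq2 (0.66), limma with 1 or 0.1 added (0.12 and 0.47) and the C3H sample of the same day alone (0.70). In Prph rd2, 0 of 16 receptors were called by edgeR, DESeq2 or limma, although 3 had an unadjusted p under 0.05, and the median was 0.06. Of all tested genes only 2.68% were called higher and 1.89% lower there. The share of all tested genes with an unadjusted p under 0.05 alone was not counted, here and for the lists below. The receptor count in Prph rd2 was 1 without C3H replicate 3, where Crhr2 was called. Cckbr, the cholecystokinin receptor of the brain, was at 10.2, 10.6 and 11.8 CPM in C3H, 9.91, 9.07 and 9.68 in Pde6b rd1, 13.2, 13.4 and 12.2 in Pde6b rd10 and 9.32, 9.39 and 8.81 in Prph rd2. The Pde6b rd10 samples were the highest, and no call was made for Cckbr in any comparison with C3H. Oprl1, the nociceptin receptor, was at 14.1 to 18.0 CPM in all 12 samples and was not called against C3H either.

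The genes that process and store peptides formed a list of 16, all tested. In Pde6b rd1, 2 of 16 were called lower and 0 higher, where 6.03% of all tested genes were called lower. The list's median log2 fold change was -0.33, against -0.011 over all tested genes and -0.42 over the 12 amacrine markers described below, whose part in this shift was not tested. Pcsk1, a proprotein convertase, was at 14.9, 14.3 and 14.9 CPM in C3H and at 7.53, 6.37 and 7.36 in Pde6b rd1 (log2 fold change -1.02, SE 0.10, adjusted p 5.55e-09). Scg2, the granin secretogranin II, had a log2 fold change of -0.62 (SE 0.04, adjusted p 2.48e-12). The groups did not overlap for either gene. The Scg2 call was lost with amacrine scaling (-0.30) and with limma on log2 FPKM with 1 or 0.1 added (-0.54 and -0.55). In Pde6b rd10, 3 of 16 were called higher and 1 lower, where the shares of all tested genes were 15.9% and 8.08%, with a median of 0.26. Ptprn, a membrane protein of dense-core vesicles, had 1147, 1434 and 1168 counts in C3H and 5328, 4336 and 3833 in Pde6b rd10, a 3.48-fold difference (log2 fold change 1.80, SE 0.06, adjusted p 3.98e-16). Scg2 was 1.82-fold higher (0.86, SE 0.04, adjusted p 1.50e-13) and Pcsk1 1.54-fold higher (0.63, SE 0.07, adjusted p 3.58e-07). In CPM, every Pcsk1 and Scg2 sample of Pde6b rd1 lay below C3H and every sample of Pde6b rd10 above it. Qpct, which forms the pyroglutamate end of some peptides, was 1.78-fold lower (-0.83, SE 0.05, adjusted p 3.17e-11). In Prph rd2 edgeR, DESeq2 and limma each called 0 of 16, although 7 had an unadjusted p under 0.05, and the median was 0.05. The shares of all tested genes called there were 2.68% higher and 1.89% lower. Between Pde6b rd10 and Pde6b rd1, the calls were 10 of 16 higher and 0 lower in the former. Of all genes tested between these models, 17.6% were called higher and 11.2% lower. The count in Pde6b rd1 rose to 5 without C3H replicate 1, where Chga, Pcsk1n and Vgf were also called, and to 4 without Pde6b rd1 replicate 2.

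Of 31 other peptide precursors, 27 were in the table and 12 or 13 were tested. In Pde6b rd1, 3 of 12 were called lower and 0 higher, with a median log2 fold change of -0.46, where the calls over all tested genes were 6.03% lower and 8.98% higher and the median was -0.011. In Pde6b rd10, 8 of 13 were called higher and 2 lower, with a median of 0.71. The calls over all tested genes were 15.9% higher and 8.08% lower there, and the median was -0.0025. The 8 include Edn3, untested in Pde6b rd1 and Prph rd2, which passed the filter only through its Pde6b rd10 counts, given below. Edn3 also enters the median of 0.71. In Prph rd2 edgeR, DESeq2 and limma each called 0 of 12, 1 had an unadjusted p under 0.05, and the median was 0.15. The calls over all tested genes were 2.68% higher and 1.89% lower there. Tac2, the precursor of neurokinin B, was at 3.93, 3.65 and 4.46 CPM in C3H, 1.37, 1.46 and 1.06 in Pde6b rd1, 8.81 or more in Pde6b rd10 and 5.26, 5.36 and 4.13 in Prph rd2. It was called lower in Pde6b rd1 (log2 fold change -1.60, SE 0.20, adjusted p 5.56e-07) and higher in Pde6b rd10 (1.22, SE 0.12, adjusted p 4.02e-08). Apln, the precursor of apelin, which endothelial tip cells make among others, was at 20.1 to 21.6 CPM in C3H, 13.0 to 13.5 in Pde6b rd1 and 2.09 to 2.13 in Pde6b rd10. That is 1.54-fold lower in Pde6b rd1 (-0.63, SE 0.08, adjusted p 2.84e-07) and 9.81-fold lower in Pde6b rd10 (-3.29, SE 0.11, adjusted p 8.90e-16). The Apln call in Pde6b rd1 was lost with amacrine scaling (-0.30) and with limma with 1 or 0.1 added (-0.47 and -0.55). Calca, the precursor of calcitonin and CGRP, had 11, 14 and 19 counts in C3H and 60, 60 and 65 in Pde6b rd10 (log2 fold change 2.02, SE 0.25, adjusted p 9.92e-07). Pomc, the precursor of endorphin and melanocortins, had 13, 15 and 9 counts in C3H and 43, 40 and 46 in Pde6b rd10 (1.75, SE 0.27, adjusted p 1.57e-05). Edn3, the endothelin 3 gene, had 2, 1 and 2 counts in C3H and 16, 19 and 20 in Pde6b rd10, and no fold is given since the C3H counts were under 3. Nppa, the atrial natriuretic peptide gene, was called lower in Pde6b rd1 (-0.88, SE 0.34, adjusted p 0.0395), and this call was lost without C3H replicate 2 (-0.79) and without Pde6b rd1 replicate 1 (-0.61). It was also lost with DESeq2 (-0.87), amacrine scaling (-0.56), limma with 1 added (-0.39), the C3H sample of the same day alone (-0.57) and the filter at 1 CPM. The number called in Pde6b rd1 was 6 without C3H replicate 1.

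**Figure D5:**
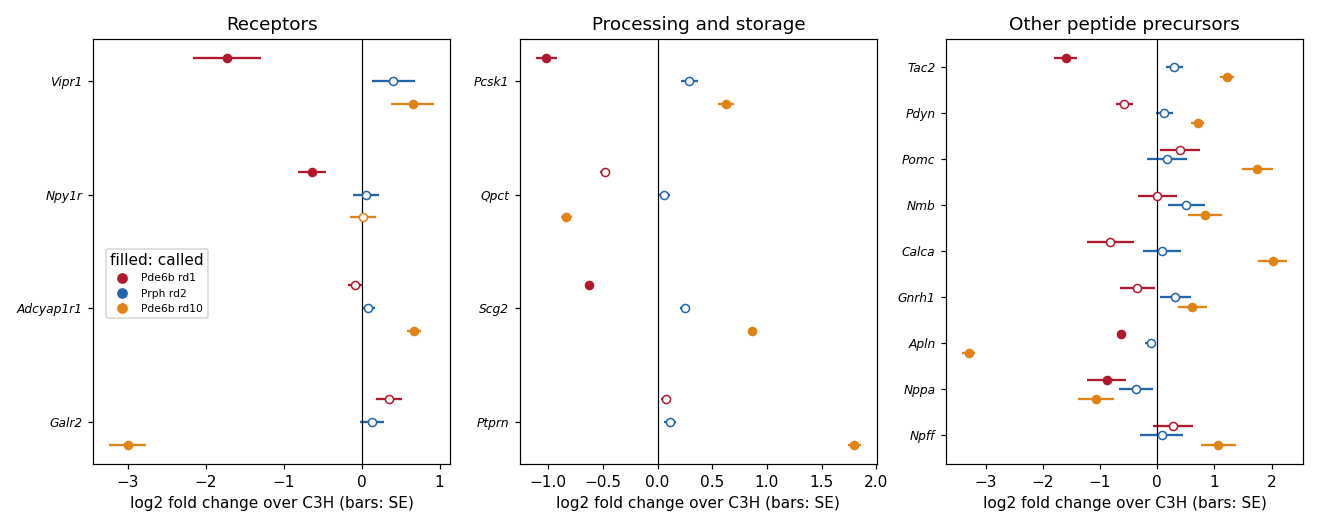
Log2 fold change over C3H, with standard error, of the list genes called in at least 1 model against C3H, leaving out Edn3, with filled points for calls at an unadjusted p under 0.05 and 1.5-fold. Galr2 at -3.0 and Apln at -3.29 in Pde6b rd10 lie farthest below 0, and Ptprn at 1.80 and Calca at 2.02 farthest above.

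Markers of the cells that make these peptides and of other retinal cells moved with the groups as well. The tissue matched its label, with marker genes of rods and of bipolar, amacrine, ganglion and Mueller cells present in every sample. The summed CPM of 12 amacrine markers was 2189 to 2233 in C3H, 1799 to 1820 in Pde6b rd1, 2138 to 2175 in Pde6b rd10 and 2349 to 2428 in Prph rd2. For 10 ganglion cell markers it was 1316 to 1350, 937 to 965, 1232 to 1284 and 1276 to 1373, in the same order. The range of Pde6b rd1 lay below those of the other groups for both lists. Of the amacrine markers, 0 were called higher and 1 lower in Pde6b rd1 (median log2 fold change -0.42), and 0 of 12 were called in Pde6b rd10 or Prph rd2 by edgeR, DESeq2 or limma, where 9 and 5 had an unadjusted p under 0.05. Of the ganglion cell markers, 2 of 10 were called lower in Pde6b rd1 and 2 in Pde6b rd10. Of all tested genes, 8.98% were called higher and 6.03% lower in Pde6b rd1, and 15.9% and 8.08% in Pde6b rd10. In Prph rd2 these shares were 2.68% and 1.89%. Scaled to the amacrine markers instead of all genes, which moved the median of all tested genes to 0.31 in Pde6b rd1, the log2 fold changes in Pde6b rd1 were -1.45 for Cck, -0.97 for Penk, -0.99 for Vip, 0.93 for Npy and 0.92 for Pnoc. These 5 calls held in that scaling, in which Sst (0.82) was also called higher.

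The summed CPM of 10 rod markers was 27547 to 28551 in C3H, 13616 to 13678 in Pde6b rd1, 22787 to 23802 in Pde6b rd10 and 17852 to 19104 in Prph rd2. Mueller cell markers were at 3732 to 3879, 2118 to 2156, 3923 to 4133 and 3930 to 4057 CPM, and 10 bipolar cell markers at 2266 to 2342, 2235 to 2254, 2002 to 2020 and 2310 to 2405. Microglia markers stood apart in Pde6b rd10, at 243 to 264 CPM against 87.8 to 100 in the other 9 samples. Of these markers, 9 of 10 were called higher in Pde6b rd10, where 15.9% of all tested genes were. Markers of lens and pigment epithelium summed to 22.8 to 25.3 CPM in Pde6b rd1 and to 40.3 to 45.6 in the other groups. Lymphoid and sympathetic markers summed to 2.73 to 3.30 CPM in Pde6b rd10 and to 0.225 to 1.09 in the others, with Cd3e at 0 in all C3H samples. The part of these markers in the differences of the neuropeptide genes was not tested.

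For each member, the genes with the most similar pattern were those with the smallest root mean square difference of centred log2 CPM over the 12 samples, among 13643 genes with a mean of at least 1 CPM. This is a description, in which the samples of a group share mutation, age and handling. For Cck they were Pvalb (0.34), Adamtsl5 (0.35) and Fam107a (0.44), against a spread of Cck itself of 1.53 on this scale. For Penk they were Wfdc1 (0.17), Thrsp (0.17) and Opn1mw (0.19), against a spread of 0.74. For Vip they were Lyve1 (0.12), Aqp4 (0.16) and Scn2b (0.18), against 0.65. For Npy they were Ttyh2 (0.11), Vash1 (0.13) and Vash2 (0.13), against 0.50, and for Pnoc they were Nnat (0.27), Lrp4 (0.30) and Lipg (0.30), against 0.94. The remaining members had spreads of 0.18 to 0.41, so that many genes with little change came close to them.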

How the data were processed

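The authors deposited gene counts for 12 retina samples, unnormalized reads per gene, and FPKM values, in which they related these counts to gene length and to each library's gene reads. The submitters' processing notes name HISAT2, HTSeq 0.11.2 and build GRCm38, and the libraries were directional. The deposited circRNA junction counts and circRNA TPM values covered 12510 circRNAs, of which 0 came from the 10 genes, and were not used further. Columns of the authors' own comparisons were not used. Samples were grouped by the labels.

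Counts were normalized by TMM, filtered by filterByExpr and tested with edgeR 4.0.16 (quasi-likelihood test, R 4.3.3), each model separately with the 3 C3H samples, and between models by contrasts in a fit of 12 samples. The call required an unadjusted p under 0.05 and 1.5-fold, and p-values were adjusted by the Benjamini-Hochberg method over all genes tested, 18310 for Pde6b rd1, 18704 for Pde6b rd10, 18581 for Prph rd2 and 19616 between models. A prior count of 2 was used for log2 CPM, which served for the spreads, the similar genes and the replicate numbers, and not for the log2 fold changes. Counts were simulated for these 3 comparisons with C3H, on the same numbers of genes and with 1 common dispersion for all genes. Changes were added only to genes with a mean above 1 CPM. Of these, 99 to 100% of 2-fold changes and 100% of 4-fold changes were found. False calls fell among 0.497, 0.493 and 0.688% of unchanged genes. The rates of found changes do not cover genes with fewer counts, such as Crh. The floor of 3 counts covers counting error alone, as the reads carry no molecular identifiers.

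Alternatives were DESeq2 1.42.0 (Wald test, or its size factors), limma 3.58.1 on log2 FPKM with 1 or 0.1 added, scaling to 12 amacrine markers, no filter, a filter at 1 CPM, a call on the adjusted p, a single fit of 12 samples for all comparisons, the C3H sample of the same day alone, a replicate block, and each sample left out in turn. Named were the 10 genes, up to 5 called genes per list and comparison with C3H with the smallest p and no overlap, receptors of the members described, and the 3 genes most similar to each of the members. Vipr1 in Pde6b rd10, Chga, Pcsk1n, Vgf, Crhr2, Nts and Nppb were named after their values were seen. The members and lists were chosen with earlier results of these data known. Tables and figures were made with Python 3.11.15, numpy 2.4.6, pandas 2.3.3 and matplotlib 3.10.9.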

Additional observations from a re-analysis of the deposited data

Results flagged for a closer look

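The differences of 4 genes between the Pde6b rd10 and Pde6b rd1 retinas and of 2 genes between Prph rd2 and Pde6b rd1 drew attention, because the gene was called in opposite directions against the shared C3H samples and the models also differed in the direct contrast of edgeR's quasi-likelihood test with Benjamini-Hochberg adjustment. Between Pde6b rd10 and Pde6b rd1, the log2 difference was 4.31 for Cck (adjusted p 2.91e-11), 2.07 for Penk (adjusted p 8.94e-11), -1.26 for Npy (adjusted p 8.46e-08) and -2.67 for Pnoc (adjusted p 1.90e-07). Between Prph rd2 and Pde6b rd1, it was 3.22 for Cck (adjusted p 3.09e-08) and -1.38 for Pnoc (adjusted p 1.73e-04). The opposite calls were less secure for Npy and Pnoc than for Cck and Penk. In Pde6b rd1 the higher calls held in 13 of 17 alternatives for Npy and in 11 of 17 for Pnoc. Both were lost in the fit of all 12 samples. The lower call of Pnoc in Prph rd2 held in 12 of 17 and had an adjusted p of 0.109. In each of the 6, the 3 samples of one model lay apart from the 3 of the other. How many of all tested genes lay apart in this way, or had opposite calls, was not counted. The models differ in labelled day and sex makeup, and Pde6b rd10 by the methods and Prph rd2 by the labels also in strain. The mutation can thus not be told apart from these.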

How the results depend on the processing

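Every count and log2 fold change was recomputed under each alternative. Of the counts under an alternative, 288 stayed within 1.5 times the reported count and 30 did not. Of the log2 fold changes, 1054 kept direction and call, 26 lost the call, 14 gained one and 37 changed sign, all 37 uncalled under both. Penk and Vip in Pde6b rd1, Penk in Pde6b rd10 and Cck in Pde6b rd10 and Prph rd2 kept their call under every alternative.

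With limma on log2(FPKM + 1), which compresses low values, the calls were 1 higher among the neuropeptide genes, 0 receptors, 1 processing gene and 1 other precursor in Pde6b rd1. In Pde6b rd10 they were 0 lower neuropeptide genes, 1 receptor and 5 other precursors, in Prph rd2 0 lower neuropeptide genes, and between Pde6b rd10 and Prph rd2 2 neuropeptide genes. There Cck in Pde6b rd1 had a log2 fold change of -0.54 and was not called. With 0.1 added, 1 processing gene was called in Pde6b rd1. In the fit of all 12 samples, 0 neuropeptide genes were called higher and 7 other precursors in either direction in Pde6b rd1. The filter at 1 CPM left 1 receptor called in Pde6b rd1 and left Cck untested there. Without a filter, 1 receptor was called in Prph rd2. The adjusted p as threshold left 0 lower neuropeptide genes in Prph rd2, and the C3H sample of the same day gave 1 other precursor there.

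Scaling to the amacrine markers gave 1 processing gene in Pde6b rd1, 2 lower neuropeptide genes in Prph rd2 (with Npy at -0.60) and 8 neuropeptide genes between Prph rd2 and Pde6b rd1, where the median of all genes moved by -0.44. In this scaling 3453 genes were called higher and 412 lower in Pde6b rd1, against 1645 and 1104 in the reported fit. Left-out samples gave 0 to 2 higher neuropeptide genes, 1 to 3 receptors, 2 to 5 processing genes and 2 to 6 other precursors in Pde6b rd1, 0 to 2 lower neuropeptide genes and 0 to 1 receptors in Prph rd2. The cause of these shifts was not tested.

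The sign changes concerned values near 0. With amacrine scaling, Tac1 was at 0.078, Gal at 0.31 and Crh at 0.063 in Pde6b rd1, Tac1 at -0.10 and Crh at -0.12 between Pde6b rd10 and Pde6b rd1, Tac1 at -0.24 between Prph rd2 and Pde6b rd1 and Vip at 0.035 between Pde6b rd10 and Prph rd2. With limma, Gal was at 0.025 and 0.034 in Pde6b rd1 with 1 and 0.1 added, and Tac1 at 0.0054 and 0.0071 in Pde6b rd10. With the C3H sample of the same day, Gal was at 0.081 in Pde6b rd1, and Tac1 at 0.035 in Pde6b rd10 and 0.0094 in Prph rd2. Without a filter, Adcyap1 was at -0.012 between Pde6b rd10 and Prph rd2. Left-out samples moved Gal in Pde6b rd1 from -0.19 to 0.10, Tac1 in Pde6b rd10 from -0.096 to 0.029, Crh in Pde6b rd10 from -0.40 to 0.19, Penk in Prph rd2 from -0.17 to 0.064 and Tac1 in Prph rd2 from -0.18 to 0.013. They moved Crh from -0.12 to 0.47 between Pde6b rd10 and Pde6b rd1 and from -0.21 to 0.13 between Prph rd2 and Pde6b rd1. Between Pde6b rd10 and Prph rd2 they moved Vip from -0.16 to 0.030, Tac1 from -0.038 to 0.13, Adcyap1 from -0.097 to 0.20 and Crh from -0.065 to 0.53.

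All groups carry the replicate numbers 1 to 3. The deviations of same-numbered samples correlated at 0.07, 0.06 and 0.13 for Pde6b rd1 with C3H, -0.024, -0.0011 and -0.042 for Pde6b rd10 and -0.07, 0.07 and 0.02 for Prph rd2, so the numbers were not taken to pair samples. With the number as a replicate block, 1664 genes were called higher and 1110 lower in Pde6b rd1, and no call of a neuropeptide gene changed. Low counts limit Cck in Pde6b rd1, Pnoc in Pde6b rd10, Gal and Crh.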

Other observations

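Among the other peptide precursors with too few counts to be tested against C3H, 2 had counts in 1 model above those in the other samples. Nts, the neurotensin gene, had 10, 6 and 9 counts in the 3 Pde6b rd1 samples and 0 or 1 in each of the other 9 samples. Nppb, the gene of B-type natriuretic peptide, had 10, 5 and 8 counts in Pde6b rd10 and 0 to 2 elsewhere. Both are low counts, given as values and chosen after they were seen. Edn3 had 0 counts in all Pde6b rd1 samples and 0 or 1 in Prph rd2. It was called higher in Pde6b rd10, where it passed the filter only through its Pde6b rd10 counts.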
